A study of Mus musculus with 16 samples.

Results

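Endurance training was compared with no training in the gastrocnemius, the large calf muscle, of 16 wild type male BALB/c mice, 8 trained against 8 untrained, with tumor status as a covariate. All 16 libraries of the series entered the comparison and every gene of the count table was considered. The C group (4 mice) had no tumor and did not run, the E group (4 mice) had no tumor and ran, the T group (4 mice) carried CT26 tumors and did not run, and the TE group (4 mice) carried CT26 tumors and ran. CT26 is a colon carcinoma cell line of BALB/c origin, and it was injected under the skin near the hind limb of mice that had been bought at 8 weeks of age. The C and E mice received saline at that place under the same anesthesia. Running was on a motorized treadmill at 14 m/min for 60 min per day, 6 days per week for 4 weeks, starting on the day after the injection, and the C and T mice stood on a treadmill that did not move. The running was forced at a target pace, which was lowered in the next session for a mouse that could not complete it. Short rests were given when needed. The interval between the last run and tissue collection, and the hour of collection, are not given in the sources used here. In the text a library is written as its group and replicate number, such as C3.

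Repeated running is known to raise the oxidative capacity of muscle. Contraction activates the coactivator Ppargc1a and short-lived transcription factors such as Nr4a3, and over weeks the content of mitochondria, capillaries and fatty acid enzymes commonly grows. Muscle also holds a circadian clock, a feedback loop in which Arntl (Bmal1) with Clock or Npas2 drives the Per, Cry and Nr1d genes, whose products repress that drive, and the timing of exercise can shift it.

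Library totals ranged from 35628211 to 37635741 counts, and neither the totals (exact permutation test within tumor states, two-sided, p = 0.347) nor the number of genes detected (p = 0.223, same test) differed with training beyond the spread between mice. The 15 defining markers of skeletal muscle fibres had counts in every library and summed to 122963 to 152994 CPM, the counts scaled to a common library size. Genes of lymph nodes and lymphocytes summed to 247.5 CPM in TE4, 96.9 in C3 and 70.5 in E1 and to between 11.7 and 40.4 in the others. T3 lay farthest from the rest of its group, with a median distance of 0.212 log2 units over the tested genes against 0.125 to 0.170 in the others. All libraries carry the same batch label. The replicates are labelled as separate mice.

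Of 35415 genes, 14749 had enough counts to be tested, and 0 of them (0%) passed an adjusted p of 0.05 for the training effect over both tumor states by edgeR (quasi-likelihood test, p adjusted after Benjamini and Hochberg). The smallest adjusted p was 0.0909, for C7. At an unadjusted p under 0.05 there were 1478 genes (10%), of which 788 (5.34%) were higher and 690 (4.68%) lower in trained muscle, and 60 genes had an adjusted p under 0.25. The differences were small, with a median absolute log2 difference of 0.09 over all tested genes. Of the 1478 genes, 70 exceeded a log2 difference of 1 in either direction.

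The count of 0 depended on a single mouse and on the tool. Without T3, 86 genes (0.575%) passed the adjusted threshold by the same test, 75 of them higher and 11 lower in trained muscle, and without T2 there were 3. DESeq2's Wald test on all 16 libraries passed 70 genes (0.550%), 42 higher and 28 lower, and limma-voom with sample weights passed 34 (0.231%), 29 higher and 5 lower. There were 26 genes common to those 3 lists. Below, the words rose and fell are kept for genes that passed the edgeR test within a tumor state, and the other values are given as differences that did not pass.

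C7, a terminal component of complement that connective tissue cells of muscle also make, headed the ranking. It lies on chromosome 15 from 5017233 to 5093252 on the minus strand (GRCm39) and is protein coding. Its level was 5.04, 5.63, 3.51 and 5.83 CPM in C1 to C4 and 12.6, 19.5, 12.2 and 15.4 in E1 to E4. In the tumor-bearing mice it was 4.01, 7.63, 7.58 and 5.001 in T1 to T4 and 8.93, 8.86, 11.1 and 10.04 in TE1 to TE4. All 8 trained mice were above all 8 untrained mice. The log2 difference over both states was 1.13 ± 0.18 (SE, n = 8 against 8), a 2.19-fold difference by the fit. Its adjusted p was 0.0909 (edgeR's quasi-likelihood test). For E over C the log2 difference was 1.58 ± 0.21, and C7 rose (adjusted p = 0.0107, edgeR). For TE over T it was 0.68 ± 0.21, and C7 did not pass.

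Ecm2, an extracellular matrix protein, was at 30.0 to 35.9 CPM in C, 37.5 to 46.1 in E, 22.9 to 32.5 in T and 32.6 to 36.4 in TE, so the groups did not overlap in either tumor state. Its log2 difference was 0.36 ± 0.07 and was nearly equal in the 2 states (0.38 and 0.34). Luzp1, a leucine zipper protein of the actin cytoskeleton and cilia, ranged from 24.1 to 29.9 CPM over the untrained mice, with a median of 26.0, and from 30.0 to 33.6 over the trained mice, with a median of 31.7. As for C7, no untrained mouse (highest 29.92) reached a trained one (lowest 29.99), but the difference was only 0.25 ± 0.05 on the log2 scale, 19.3% of the untrained mean. Neither gene passed (adjusted p = 0.181 and 0.193, edgeR).

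The others of the 8 genes with the smallest p among those higher in trained muscle were Insig1, Gpc3, Prkcd, Abi3bp and Slc25a40, each with an adjusted p of 0.193 by edgeR. Insig1, which holds back the activation of sterol regulatory element binding proteins, was at 10.4 to 11.8 CPM in C, 13.6 to 16.9 in E, 9.63 to 12.7 in T and 11.8 to 14.4 in TE, a log2 difference of 0.37 ± 0.07. Prkcd, a protein kinase C isoform, differed by 0.69 ± 0.14, Gpc3, a cell surface proteoglycan, by 0.48 ± 0.09, Abi3bp, a matrix protein, by 0.49 ± 0.10 and Slc25a40, a mitochondrial carrier, by 0.40 ± 0.08. Prkcd rose in E over C (log2 1.01, adjusted p = 0.028, edgeR) and its difference in TE over T, 0.38, did not pass.

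Among genes lower in trained muscle, Tspan4, a membrane tetraspanin on chromosome 7 (141055138 to 141073340, plus strand, GRCm39), had the smallest p. It was at 25.1, 26.9, 28.04 and 32.5 CPM in C1 to C4, 19.8, 16.5, 23.8 and 17.5 in E1 to E4, 18.6, 21.9, 17.9 and 22.0 in T1 to T4, and 14.2, 16.6, 13.4 and 16.7 in TE1 to TE4. Trained mice lay below untrained mice in each tumor state, while T overlapped E. Its log2 difference was -0.47 ± 0.08 (adjusted p = 0.173, edgeR). The long non-coding RNA 2810454H06Rik differed most in this set, by -1.41 ± 0.29, at 0.304 to 0.81 CPM in untrained and 0.0832 to 0.437 in trained mice. Before TMM scaling (described below), 3 counts in a library correspond to up to 0.0842 CPM.

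The other genes of this set include several mitochondrial or lipid enzymes. Dhrs4 (-0.23 ± 0.05) is a peroxisomal dehydrogenase, Ech1 (-0.21 ± 0.05) an enzyme of the oxidation of unsaturated fatty acids, Gpam (-0.33 ± 0.08) the mitochondrial acyltransferase that starts glycerolipid synthesis, and Tomm40 (-0.20 ± 0.05) the pore of the outer mitochondrial membrane. Mllt3 (-0.24 ± 0.05) is a reader of acylated histones and Prmt1 (-0.21 ± 0.05) an arginine methyltransferase. Gpam was at 204 to 304 CPM in C and at 187 to 203 in E, 209 to 253 in T and 180.3 to 213 in TE. The adjusted p of these 6 genes lay between 0.239 and 0.246 (edgeR). DESeq2 passed 15 of these 16 genes, limma-voom 11 and edgeR without T3 also 11.

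**Figure D1:**
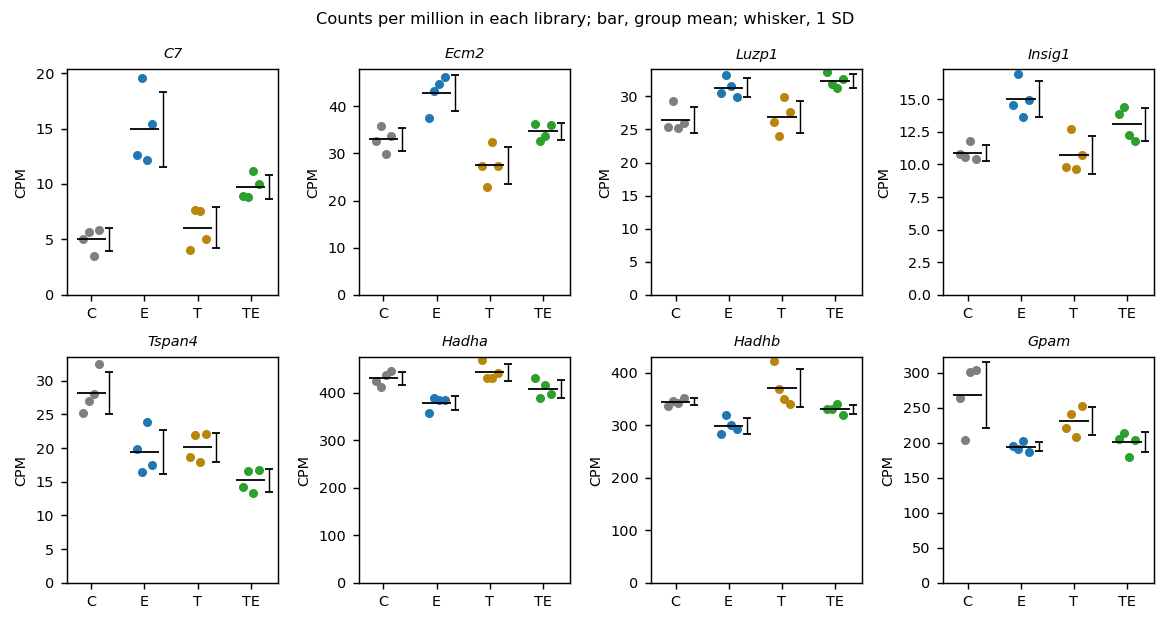
CPM of 8 genes in each of the 16 libraries (points), by group, with the group mean (bar) and 1 SD (whisker), y axes from 0. C7 and Luzp1 show trained groups (E, TE) wholly above untrained groups (C, T), and Hadha and Hadhb show small offsets downwards in both tumor states.

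Complete separation of the trained from the untrained mice in both tumor states was rare. It was found for 7 of the 14749 genes in the higher direction (0.0475%) and for 8 in the lower direction (0.0542%). Besides C7, Ecm2 and Luzp1 the higher genes were Cdkl2, a protein kinase (log2 difference 0.29), Greb1l (1.02, at 0.111 to 0.351 CPM in untrained mice), the nuclear receptor coactivator Ncoa3 (0.19) and the splicing factor Rnps1 (0.16). Besides Tspan4 and 2810454H06Rik the lower genes were Hadha and Hadhb, Wbp2 (-0.17), Tango2 (-0.19), the Z-disc protein Myot (-0.18) and Tipin (-0.17), which protects replication forks. These names were picked after their values were seen, and how many genes would separate by chance alone was not tested.

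The 2 tumor states gave different pictures. The E and C mice share no library with the TE and T mice, but both contrasts came from 1 fit with a common estimate of the spread. In E over C, 13 genes (0.0881%) passed the adjusted threshold by edgeR, all higher, against 251 by DESeq2, 199 higher and 52 lower, and 2092 (14.2%) had an unadjusted p under 0.05, 1255 (8.51%) higher and 837 (5.67%) lower. In TE over T, 0 genes (0%) passed by edgeR, 7 by DESeq2, and 867 (5.88%) had an unadjusted p under 0.05, 423 (2.87%) higher and 444 (3.01%) lower. The interaction of tumor and training passed 0 genes (0%) by edgeR and 20 by DESeq2, with 1358 (9.21%) at an unadjusted p under 0.05. Across genes the log2 differences of the 2 states were close to unrelated, with a Pearson r of -0.07 and a Spearman rho of 0.01, given as a description since genes are not independent replicates. Both states had the same sign for 51.6% of the genes, and 118 genes had an unadjusted p under 0.05 in both, which is 5.64% of the 2092 and 13.6% of the 867. Of those 118 genes, 77 had the same sign and 41 opposite signs.

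**Figure D2:**
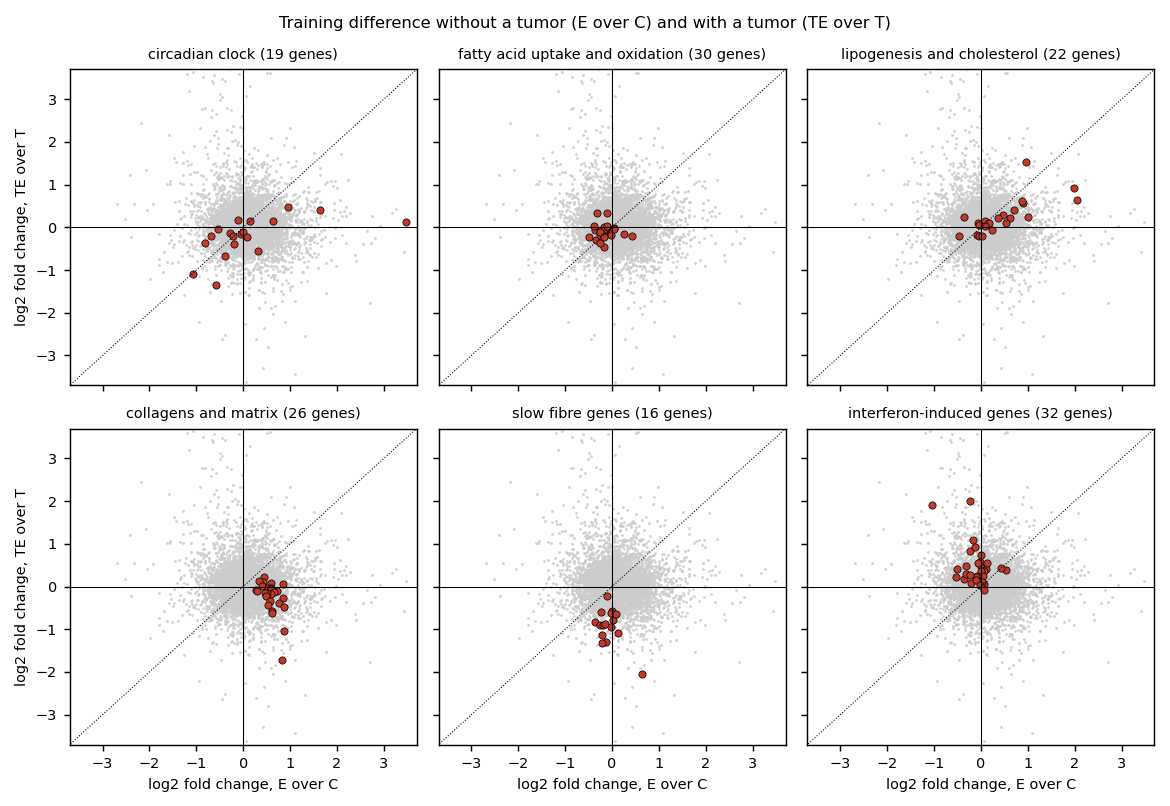
Each grey point is a tested gene, with its log2 fold change for E over C on the x axis and for TE over T on the y axis; red points are the members of 1 gene list per panel and the dotted line marks equal differences. Collagen genes spread along the x axis, slow fibre and interferon-induced genes along the y axis, and lipogenesis genes near the diagonal; 28 genes lie outside the plotted range.

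The 13 genes that rose in E over C were C7, Fst, Chad, Fmod, Serpinf1, Col5a3, Tnmd, Arntl, Prkcd, Clock, Pde3a, Sdc1 and Sash1. Leaving out C1, C3 or E4 took that count to 0, C4 or E2 to 2 and C2 to 6, while leaving out E1 gave 35, T2 34, T4 30 and T3 127. Chad, Fmod, Col5a3 and Tnmd are genes of matrix and tendon, and Arntl and Clock of the circadian clock. Fst, follistatin, an inhibitor of myostatin and activins, was at 3.27 to 4.12 CPM in C, 6.65 to 7.53 in E, 3.12 to 4.45 in T and 3.32 to 5.07 in TE. The E mice stood apart from the other 3 groups, which overlapped. Its log2 difference was 1.04 ± 0.15 for E over C (adjusted p = 0.016, edgeR) and 0.27 ± 0.15 for TE over T, and the interaction had an adjusted p of 0.42. Serpinf1, a secreted inhibitor of vessel growth, rose by 0.66 and the phosphodiesterase Pde3a by 0.92. Sdc1, a heparan sulfate proteoglycan, rose by 0.71 and the scaffold protein Sash1 by 0.66. In TE over T each of the last 4 differed by 0.20 or less.

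Gene lists, chosen with earlier results of these data known, were read by counting members at an unadjusted p under 0.05. The shares of all tested genes were 5.34% higher and 4.68% lower over both states. They were 8.51% higher and 5.67% lower in E over C, and 2.87% higher and 3.01% lower in TE over T. For the interaction the share was 9.21%. Circadian clock genes stood out in both directions, with 4 of 19 higher (21.1%) and 9 lower (47.4%). Genes of fatty acid uptake and oxidation had 14 of 30 lower (46.7%) and 0 higher, and genes of lipogenesis and cholesterol synthesis 10 of 22 higher (45.5%) and 2 lower. Slow fibre genes had 7 of 16 lower (43.8%), interferon-induced genes 9 of 32 higher (28.1%) and collagens and matrix 6 of 26 higher (23.1%). Of the tested genes on all 44 lists, 0 passed the adjusted threshold over both states.

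At an unadjusted p under 0.05 over both states, Arntl, Clock, Npas2 and Nfil3 were higher and Per1, Per2, Per3, Cry2, Ciart, Nr1d2, Dbp, Tef and Hlf lower in trained muscle, and none of them passed the adjusted threshold. Arntl, which lies on chromosome 7 (112806152 to 112914735, plus strand, GRCm39, named Bmal1 there), was at 7.70, 7.05, 6.13 and 6.29 CPM in C1 to C4 and 19.1, 24.5, 13.8 and 27.0 in E1 to E4. It was 14.2, 9.18, 26.3 and 16.2 in T1 to T4 and 27.3, 18.8, 26.9 and 14.6 in TE1 to TE4. The C mice were uniformly low, while T overlapped TE. Arntl rose in E over C (log2 1.63 ± 0.28, adjusted p = 0.028, edgeR) and differed by 0.41 ± 0.26 in TE over T. Clock, its partner, rose by 0.64 ± 0.11 in E over C (adjusted p = 0.0315, edgeR) and differed by 0.15 ± 0.11 in TE over T. Npas2, the alternative partner, was at 0.0536 to 0.135 CPM in C against 0.38 to 1.99 in E, 0.249 to 1.66 in T and 0.613 to 1.33 in TE. Nfil3, a repressor that binds D-boxes, was higher by 0.71 ± 0.25 over both states.

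Among the genes that this drive activates, Per2 was at 24.4 to 27.2 CPM in C and 15.2 to 18.9 in E, without overlap, and at 19.7 to 33.3 in T and 17.3 to 22.7 in TE, with overlap. Its log2 difference over both states was -0.44 ± 0.11 (adjusted p = 0.246, edgeR). Per1 differed by -0.53 ± 0.17, Per3 by -0.59 ± 0.18, Cry2 by -0.29 ± 0.09 and Ciart, a repressor of Arntl and Clock, by -0.94 ± 0.39. Dbp, an activator at D-boxes whose level swings widely over the day, ranged from 15.3 to 132 CPM in untrained mice (median 87.7) and from 17.1 to 105 in trained mice (median 31.1), a log2 difference of -1.09 ± 0.35 that was the same in both states (-1.08 and -1.09). E3 at 105 CPM was within the range of C, and T3 at 15.3 was lower than every trained mouse. The related factors Tef (-0.20 ± 0.07) and Hlf (-0.29 ± 0.13) and the repressor Nr1d2 (-0.21 ± 0.09) were lower too.

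Members that did not reach an unadjusted p of 0.05 included Nr1d1, the target through which Arntl is usually repressed, at -0.11 ± 0.22, and Cry1 at 0.15 ± 0.08. In E over C, 4 clock genes were higher and 5 lower at an unadjusted p under 0.05, in TE over T 0 higher and 4 lower, and the interaction was below an unadjusted p of 0.05 for 6 of 19. Without T2, 6 rather than 9 members were lower over both states, and the difference of Ciart was -0.61. Since the hour of collection is not given, a difference in hour between groups and an effect of training on the clock cannot be told apart.

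**Figure D3:**
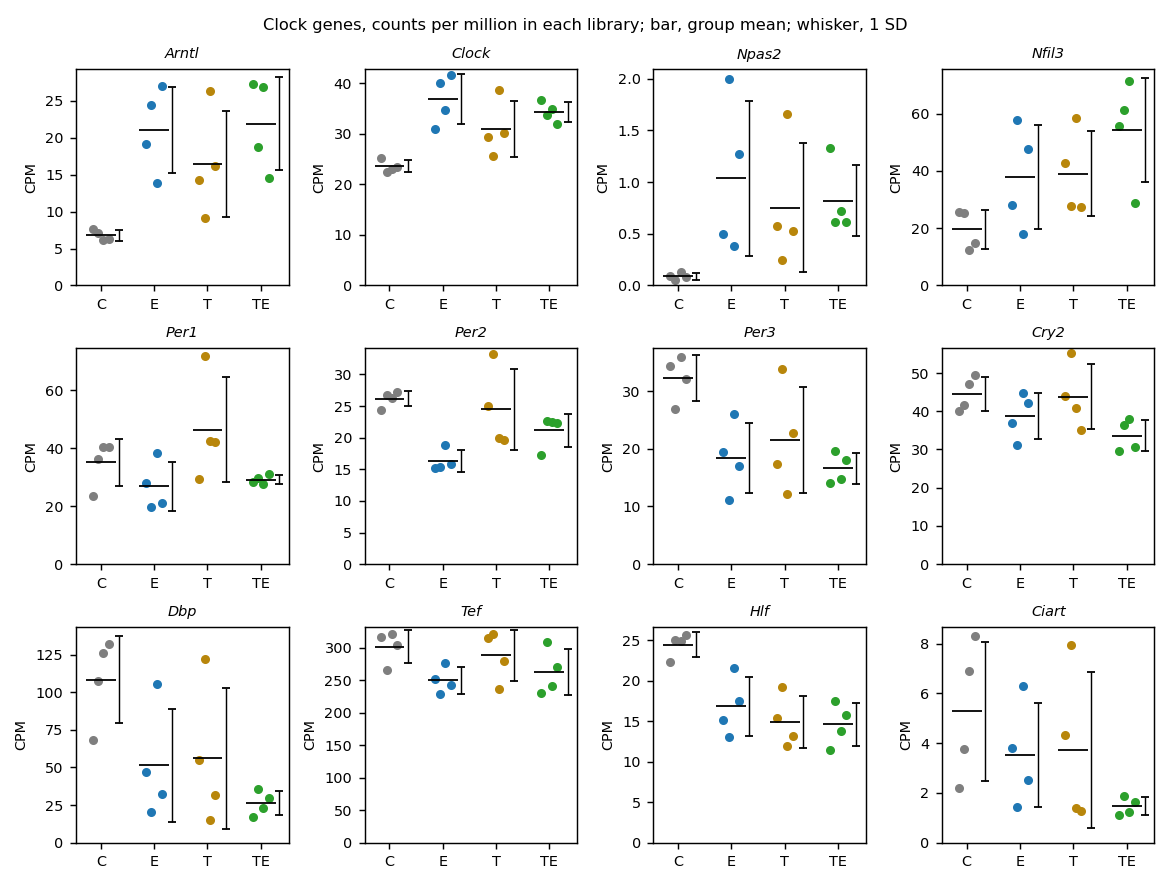
CPM of 12 clock genes in each library (points), by group, with the group mean (bar) and 1 SD (whisker), y axes from 0. Arntl, Clock and Npas2 are low in all 4 C mice, Per2 is lower in E than in C, and T spans much of the range of the other groups.

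Promoters of clock genes are shown because they hold elements through which genes of the list are known to act on each other. They run from 250 bases before to 50 bases after the start in RefSeq (GRCm38.p6), 5' to 3' on the strand of the gene. Capitals mark the E-box CACGTG, bound by Arntl with Clock or Npas2, the D-box TTATGNAA, bound by Dbp, Tef, Hlf and Nfil3, or, in Arntl, the half-site AGGTCA of the Nr1d receptors. Both strands were searched. Ciart lies at chr3:95882179-95882478 (minus strand), Per1 at chr11:69098699-69098998 (plus strand), Per3 at chr4:151044616-151044915 (minus strand) and Arntl at chr7:113207261-113207560 (plus strand).
Ciart: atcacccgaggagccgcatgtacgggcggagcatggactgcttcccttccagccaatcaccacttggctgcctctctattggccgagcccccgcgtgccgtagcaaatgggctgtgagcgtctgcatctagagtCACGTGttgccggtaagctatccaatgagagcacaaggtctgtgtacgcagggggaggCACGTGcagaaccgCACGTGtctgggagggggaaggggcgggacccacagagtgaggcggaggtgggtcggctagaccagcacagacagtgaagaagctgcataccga
Per1: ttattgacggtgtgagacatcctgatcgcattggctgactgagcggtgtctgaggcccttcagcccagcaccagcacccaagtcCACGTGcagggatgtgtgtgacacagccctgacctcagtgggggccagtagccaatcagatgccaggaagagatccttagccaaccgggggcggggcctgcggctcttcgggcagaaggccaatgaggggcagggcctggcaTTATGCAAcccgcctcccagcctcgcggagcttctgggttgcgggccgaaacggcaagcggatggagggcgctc
Per3: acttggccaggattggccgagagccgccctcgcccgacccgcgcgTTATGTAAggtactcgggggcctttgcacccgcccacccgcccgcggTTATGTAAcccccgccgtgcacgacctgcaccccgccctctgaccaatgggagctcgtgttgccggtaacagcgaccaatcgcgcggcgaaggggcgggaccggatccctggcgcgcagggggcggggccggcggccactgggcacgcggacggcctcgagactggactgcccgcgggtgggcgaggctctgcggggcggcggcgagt
Arntl: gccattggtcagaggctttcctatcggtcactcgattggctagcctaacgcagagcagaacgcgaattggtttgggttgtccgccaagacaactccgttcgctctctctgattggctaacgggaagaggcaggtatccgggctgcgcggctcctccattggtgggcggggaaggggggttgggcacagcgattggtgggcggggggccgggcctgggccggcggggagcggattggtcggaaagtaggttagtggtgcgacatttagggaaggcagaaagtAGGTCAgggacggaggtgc
The window of Ciart held 3 E-boxes, the one of Per1 shown here an E-box and a D-box, and that of Per3 2 D-boxes. Per1 and Arntl each have 2 windows in the table, and the ones not shown held none of these letters. Of the 16 tested clock genes with a promoter in the table, 5 held an E-box (31.2%), 2 a D-box (12.5%) and 5 the half-site (31.2%), compared with 11.3%, 2.57% and 15.2% of the 11577 tested genes in the table. A match of letters is a description and does not show binding.

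Of the 30 tested genes of fatty acid uptake and oxidation, 24 had negative and 6 positive values over both states, and none passed the adjusted threshold. The median log2 difference was -0.12, against 0.00 over all genes, with -0.18 in E over C and -0.09 in TE over T, and 21 (70%) were lower in both states, against 25.2% of all genes. Hadha and Hadhb encode the subunits of the mitochondrial trifunctional protein, which carries out the last steps of the oxidation of long chains. Hadhb was at 338 to 353 CPM in C, 283 to 319 in E, 342 to 423 in T and 319 to 341 in TE, and its groups did not overlap in either state (lowest T mouse 342, highest TE mouse 341). Hadha was at 413 to 446 CPM in C, 358 to 389.9 in E, 431.4 to 469.6 in T and 389 to 430.5 in TE, again without overlap, although T2 and TE1 were less than 1 CPM apart. The log2 differences were -0.19 ± 0.04 and -0.15 ± 0.04 (adjusted p = 0.246 for both, edgeR).

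Hadha (chromosome 5, 30323302 to 30360187, minus strand) and Hadhb (30359204 to 30389997, plus strand, GRCm39) point away from each other and their annotated spans overlap at the starts, where the counts could be split between them since the strand setting is not stated. In RefSeq (GRCm38.p6) their starts are 273 bases apart and their promoter windows share 228 bases. The window of Hadhb, at chr5:30155003-30155302, is shown because it holds all of that shared stretch, with no AGGTCA match and so no capitals.
Hadhb: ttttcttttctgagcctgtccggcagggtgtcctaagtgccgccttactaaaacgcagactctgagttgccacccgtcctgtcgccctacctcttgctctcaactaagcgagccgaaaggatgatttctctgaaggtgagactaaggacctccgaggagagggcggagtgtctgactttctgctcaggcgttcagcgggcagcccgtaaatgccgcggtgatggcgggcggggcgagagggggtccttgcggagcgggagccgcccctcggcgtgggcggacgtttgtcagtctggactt

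Fabp3, the fatty acid carrier of oxidative muscle, differed by -0.36 ± 0.09, with 644.2 to 834 CPM in C, 472 to 644.4 in E, 619.9 to 879.7 in T and 572 to 747 in TE. E2 (644.4 CPM) was level with the lowest C mouse, C3 (644.2 CPM), the other E mice lay below C, and T overlapped TE. The transporter Slc27a1 differed by -0.32 ± 0.09, Decr1, an enzyme of unsaturated chains, by -0.18 ± 0.05, the thiolase Acaa2 by -0.21 ± 0.06 and Cpt2, which takes chains into the matrix, by -0.18 ± 0.06. In E over C, 12 members were lower at an unadjusted p under 0.05 and in TE over T 4, with 0 higher in either, and the interaction was below that p for 2. DESeq2 passed Fabp3, Hadha and Hadhb, limma-voom passed Hadhb alone, and edgeR without T3 passed 0 of the 30. Of all genes these settings passed 0.550%, 0.231% and 0.575%. The count of 14 was 9 without E4 and 7 without TE4, C3 and E1, the libraries with the most lymphocyte genes. Pdk4 and Cpt1b, common targets of fasting and training in this pathway, differed by -0.19 ± 0.35 and 0.12 ± 0.23 and varied widely, Pdk4 from 228 to 1811 CPM in untrained mice.

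Other mitochondrial lists had smaller shares. Citric acid cycle genes had 6 of 19 lower (31.6%), led by Idh2 (-0.22 ± 0.08), a count that was 2 without TE4 and 10 without T3. Of 39 genes of respiratory complexes II to V, 5 were lower (12.8%), led by Sdhc (-0.15 ± 0.04), and of 36 genes of complex I, 3 were lower (8.33%), led by Ndufv1 (-0.11 ± 0.04). Within the tumor states, 7 genes of complexes II to V and 8 of complex I were lower in E over C and 0 of either in TE over T, with medians of -0.12 for both lists in E over C and of -0.0027 and 0.02 in TE over T. None of these 3 lists had a member that was higher at an unadjusted p under 0.05, and 32 of the 36 complex I genes had a negative value. Cytosolic ribosomal protein genes had negative values in 47 of 49, against 7154 of 14749 tested genes, with a median of -0.04, but only 2 members (4.08%) were lower at an unadjusted p under 0.05, a share near that of all genes. Of the 13 transcripts of the mitochondrial genome, 1 was higher and 0 lower, with a median of -0.01.

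Lipid synthesis genes pointed in the opposite direction from lipid oxidation. Of 22 tested genes, 14 (63.6%) were higher in both tumor states, against 26.3% of all genes, and the median log2 difference was 0.22. Scd1, the desaturase of stearic acid, was at 23.6, 113, 54.4 and 37.7 CPM in C1 to C4, 96.5, 446, 259 and 109 in E1 to E4, 23.9, 79.1, 87.7 and 174 in T1 to T4, and 116, 283, 211 and 83.1 in TE1 to TE4. E2, TE2 and E3 were highest, and C2, T3 and T4 were within the range of the trained mice. Its log2 difference was 1.46 ± 0.44 (adjusted p = 0.337, edgeR). Fasn, fatty acid synthase, differed by 1.34 ± 0.46 and Acaca, which makes its substrate, by 0.62 ± 0.22. Acly, which supplies cytosolic acetyl-CoA, differed by 0.55 ± 0.17 and the elongase Elovl6 by 1.24 ± 0.47. Without E2 the values were 0.97 for Fasn, 0.39 for Acaca, 0.41 for Acly and 0.85 for Elovl6.

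Some genes of the same list that act on control or storage also had positive values. Of the 22, 5 had negative values over both states. Srebf1, the transcription factor of fatty acid synthesis, was at 42.9 to 44.6 CPM in C and 55.3 to 69.8 in E but at 53.1 to 81.4 in T and 64.1 to 86.1 in TE, with log2 differences of 0.53 and 0.10. Thrsp, a regulator of fatty acid synthesis, differed by 0.74 ± 0.24 and Pnpla3, a lipid droplet protein, by 0.75 ± 0.28. Gpam, described above, was lower. In E over C, 9 members were higher at an unadjusted p under 0.05 and in TE over T 2.

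Values of fat cell genes moved with these results in single mice. Adipoq, made by fat cells, was at 1.49 to 9.36 CPM in C, 5.24 to 32.3 in E, 1.79 to 23.0 in T and 6.88 to 15.4 in TE, highest in E2, and its log2 difference was 0.56 ± 0.51 with training. Of the 15 adipocyte markers tested, 1 was higher (Ucp1) and 1 lower (Car3) at an unadjusted p under 0.05, and 14 had positive values. In E over C, 5 of the 15 were higher and 0 lower, with a median of 0.74, and in TE over T 1 was higher and 1 lower, with a median of -0.07. Ucp1, the uncoupling protein of brown fat, had at most 0.111 CPM in any untrained mouse but 4.12 CPM in E2, 1.78 in TE2, 0.832 in TE3 and 0.38 in TE1, while E4 had 0. The adipocyte list summed to 1748 to 2021 CPM in C, 1549.8 to 2196 in E, 1817 to 2983 in T and 1544 to 1882 in TE, and Car3, which slow fibres also make, alone gave 742 to 2090.3 CPM of these sums. The part of fat cells in the lipid synthesis values was not tested. In these bulk samples, fewer cells of a type and less RNA per cell cannot be told apart.

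Connective tissue genes differed with training mainly through the tumor-free mice. Of 26 collagen and matrix genes, 22 were higher at an unadjusted p under 0.05 in E over C, against 8.51% of all tested genes. In TE over T, 0 were higher and 4 lower, against 2.87% and 3.01%. The interaction was below that p for 22, against 9.21%. The medians were 0.58 and -0.14, and over both states 6 genes were higher. That last count was 16 without T4. Dcn, decorin, which binds collagen fibrils, was at 443 to 603 CPM in C, 642 to 784 in E, 367 to 616 in T and 494 to 566 in TE, a log2 difference of 0.33 ± 0.10 over both states. Col6a1, of the network around fibres, differed by 0.27 ± 0.08 and Nid1, a basement membrane linker, by 0.34 ± 0.11. Col5a3, a minor fibrillar collagen, rose by 0.86 ± 0.14 in E over C (adjusted p = 0.0274, edgeR) and differed by 0.06 ± 0.14 in TE over T.

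Of 17 tendon genes, 12 were higher at an unadjusted p under 0.05 in E over C, against 8.51% of all tested genes. In TE over T, 0 were higher and 2 lower, against 2.87% and 3.01%. The interaction was below that p for 12, against 9.21%. Chad, chondroadherin, was at 0.292, 0.509, 0.189 and 0.522 CPM in C1 to C4 and 2.13, 4.39, 3.47 and 4.67 in E1 to E4, against 0.249 to 1.55 in T and 0.613 to 1.07 in TE. All 4 E mice exceeded the other 12. Chad rose by 3.26 ± 0.51 in E over C (adjusted p = 0.0206, edgeR) and differed by 0.42 ± 0.49 in TE over T. Fmod, fibromodulin, rose by 1.99 ± 0.31 and differed by 0.00 ± 0.31, and Tnmd, tenomodulin, a marker of tendon cells, rose by 1.56 ± 0.26 and differed by 0.14 ± 0.26. Kera, keratocan, had log2 differences of 1.94 ± 0.37 and 0.40 ± 0.38 and did not pass in either state. Over both states 5 of 17 tendon genes were higher (29.4%), among them Lum (0.28 ± 0.10).

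The whole tendon list summed to 157 to 187 CPM in C, 267 to 414 in E, 151 to 298 in T and 162 to 231 in TE. Fibroblast genes summed to 1972 to 2719.9 CPM in C, 2849 to 3559 in E, 1801 to 2756 in T and 2224 to 2374 in TE. In E over C 10 of 15 were higher at an unadjusted p under 0.05 and in TE over T 0, and 4 were higher over both states (26.7%), led by Gsn (0.41 ± 0.11), a count of 9 without T3. Of 12 genes of smooth muscle and pericytes, 4 were higher and 1 lower over both states, 10 higher in E over C, and 1 higher and 1 lower in TE over T, with the interaction below that p for 8. Rgs5, a pericyte marker, differed by 0.23 ± 0.06 and Pdgfrb, the receptor that defines pericytes, by 0.33 ± 0.11. How much of the collagen values came from the share of tendon or fibroblasts in the piece of muscle was not tested.

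Slow fibre genes had 12 of 16 members lower in both tumor states (75%, against 25.2% of all genes), with the larger values in the tumor-bearing mice. In TE over T, 15 of 16 were lower at an unadjusted p under 0.05, against 3.01% of all tested genes, with a median of -0.89. In E over C 0 were, against 5.67%, with a median of -0.12. The interaction was below that p for 5 genes. Car3, the carbonic anhydrase of slow fibres and fat, was at 1062 to 1262 CPM in C, 791 to 1253 in E, 900.2 to 2090.3 in T and 742 to 807 in TE, a log2 difference of -0.59 ± 0.14 over both states. Every TE mouse lay below every T mouse, and E3 was within the range of C.

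Single T mice weighed on the list. Myl2, the slow regulatory light chain, was at 233, 221, 496 and 632 CPM in T1 to T4, and 172 to 241 in TE. Ankrd2, a stretch-responsive protein of slow fibres, was at 164, 128, 420.1 and 136 in T1 to T4. T1 and T2 were within the range of the C mice for Myl2, and T3 and T4 were above all of them. The log2 differences over both states were -0.58 ± 0.21 for Myl2, -0.72 ± 0.27 for Ankrd2, -0.77 ± 0.32 for the light chain Myl6b and -0.67 ± 0.28 for the slow troponin Tnni1. Without T4 the values were -0.41 for Myl2, -0.36 for Myl6b and -0.43 for Tnni1, and without T3 that of Ankrd2 was -0.41. Without T4 the count of members lower over both states was 3, and without C2 it was 13.

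None of the 4 adult myosin heavy chain genes reached an unadjusted p of 0.05 over both states. Myh7, of slow fibres, had a log2 difference of -0.49 ± 0.28 over both states (-0.24 without T4), Myh2, of type IIa fibres, of -0.13 ± 0.11, Myh1, of IIx fibres, of 0.04 ± 0.11 and Myh4, of IIb fibres, of -0.07 ± 0.06. Within the tumor-bearing mice Myh7 differed by -0.95 and Myh2 by -0.39, and within the others by -0.03 and 0.13. Of the 15 skeletal muscle fibre genes, 5 were lower over both states (33.3%). These were Myot (-0.18 ± 0.05), the intermediate filament desmin, Des (-0.19 ± 0.06), the fast fibre actinin Actn3 (-0.19 ± 0.07), the titin cap Tcap (-0.27 ± 0.10) and the calcium channel Cacna1s (-0.12). Tcap differed by -0.53 in E over C and by -0.01 in TE over T.

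Interferon-induced genes differed in the tumor-bearing mice. In TE over T, 16 of 32 were higher at an unadjusted p under 0.05, against 2.87% of all tested genes. In E over C 1 was, against 8.51%, and the interaction was below that p for 13, against 9.21%. The medians were 0.38 and -0.05. Igtp, a GTPase of the interferon gamma response, was at 12.9, 11.6, 10.1 and 10.6 CPM in T1 to T4 and 16.8, 17.9, 14.01 and 14.6 in TE1 to TE4, against 8.57 to 10.3 in C and 7.80 to 10.6 in E. The TE mice exceeded all others, with a log2 difference of 0.49 ± 0.11 in TE over T and 0.00 ± 0.11 in E over C, and 0.25 ± 0.10 over both.

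Of the guanylate-binding proteins on the list, values are given for Gbp4, Gbp6 and Gbp7, and reads of this family of near-identical genes may be split between members. Gbp4 was at 34.5 to 43.5 CPM in T and 57.3 to 72.0 in TE, and Gbp7 at 19.0 to 20.3 and 24.8 to 32.8. Their log2 differences in TE over T were 0.73 ± 0.15 and 0.55 ± 0.09, and in E over C 0.00 and -0.04. For Gbp6 they were 0.53 in E over C and 0.39 in TE over T. Stat2, a subunit of the interferon-activated factor, differed by 0.26 ± 0.10 and Rsad2, an antiviral enzyme, by 0.43 ± 0.17 over both states. TE4, the library with the most lymphocyte genes, was highest of the TE mice for Stat2 (14.2 CPM) and Rsad2 (4.15) and lowest for Gbp7 (24.8), and the part of lymphocytes in these values was not tested.

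The promoter of Igtp is shown as the example of this list, at chr11:58199306-58199605 (plus strand, RefSeq, GRCm38.p6), with a match to the interferon-stimulated response element in capitals. Of 25 list members with a promoter in the table, 16 (64.0%) held that element on either strand, against 3.65% of the tested genes.
Igtp: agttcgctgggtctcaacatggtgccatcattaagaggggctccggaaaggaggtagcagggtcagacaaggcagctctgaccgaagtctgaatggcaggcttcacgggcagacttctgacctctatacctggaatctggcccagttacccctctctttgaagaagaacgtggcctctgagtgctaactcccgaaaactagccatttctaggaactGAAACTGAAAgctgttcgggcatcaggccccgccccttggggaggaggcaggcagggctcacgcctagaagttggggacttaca

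Genes known to respond to endurance exercise were examined as a list too. Of 30 such regulators, 2 were higher (6.67%) and 1 lower (3.33%) at an unadjusted p under 0.05, which is near the shares of all genes. Ppargc1a, the coactivator of mitochondrial biogenesis, was at 27.6 to 33.98 CPM in C, 36.1 to 44.2 in E, 37.0 to 41.7 in T and 32.8 to 48.9 in TE. C did not overlap E, T and TE overlapped, and the lowest TE mouse lay within the range of C. Its log2 difference was 0.23 ± 0.08 (adjusted p = 0.39, edgeR). Nr4a3, an early response gene of contraction, was at 6.04, 6.38, 2.43 and 1.87 in C1 to C4, 14.5, 23.7, 4.81 and 5.51 in E1 to E4, 10.4, 3.34, 9.89 and 2.98 in T1 to T4 and 13.3, 7.52, 17.8 and 2.19 in TE1 to TE4. It varied by more than the difference of 1.07 ± 0.44 and its groups overlapped in both states. Tfeb, of lysosomal genes, was lower by -0.11 ± 0.05.

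Vegfa, the main vessel growth factor, differed by 0.12 ± 0.09, its receptor Kdr by 0.27 ± 0.10, the glucose transporter Slc2a4 by -0.07 ± 0.05, hexokinase Hk2 by -0.10 ± 0.07 and the uncoupling protein Ucp3 by 0.01 ± 0.27. Of 25 genes of endothelial cells and vessel growth, 1 was higher (4.00%) and 0 lower. Fos, induced within minutes of contraction, ranged from 7.44 to 62.1 CPM in untrained and from 6.46 to 60.5 in trained mice (-0.49 ± 0.53), and the heat shock genes Hspa1a and Hspa1b differed by -0.00 ± 0.34 and 0.26 ± 0.33. Jund, a member of the AP-1 family, was lower by -0.34 ± 0.09.

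The ubiquitin ligases of muscle breakdown, Fbxo32 and Trim63, differed by 0.33 ± 0.29 and 0.16 ± 0.17, and myostatin, Mstn, by 0.07 ± 0.11. With 1 library left out, the value of Fbxo32 ran from 0.21 to 0.59 and that of Trim63 from 0.087 to 0.32. Of 21 genes of ubiquitin ligases and FoxO targets, a list that holds Fbxo32 and Trim63 but not Mstn, 1 was lower (4.76%) and 0 higher at an unadjusted p under 0.05. Fbxo32 was at 233 to 417 CPM in C and 457 to 833 in E, without overlap, and at 421 to 1299 in T and 282 to 979 in TE, with T3 highest. Myf6, a myogenic factor of mature fibres, was lower by -0.24 ± 0.08. S100a8, a neutrophil protein, was at 0.0824 to 0.804 CPM in C, 0.203 to 1.27 in E, 2.21 to 11.02 in T and 2.25 to 4.07 in TE, a difference of -0.17 ± 0.46. Of 25 genes of oxidative stress defence, 3 were lower (12%) and 1 higher (4%) at an unadjusted p under 0.05, among them Cat, catalase, lower by -0.25 ± 0.06, and Gclm, of glutathione synthesis, higher by 0.27 ± 0.07, each to a similar extent in both states.

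**Figure D4:**
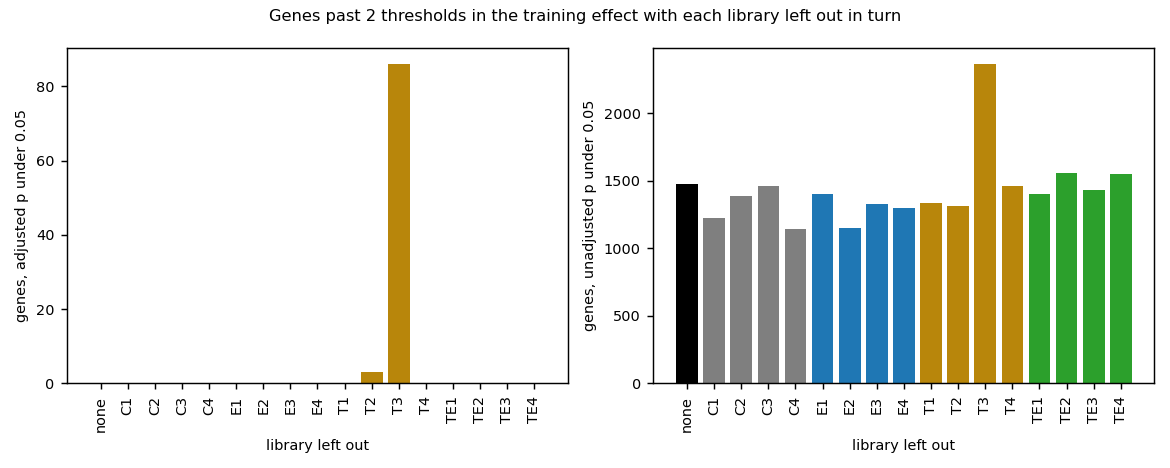
Number of genes (y axes, from 0) with an adjusted p under 0.05 (left) and an unadjusted p under 0.05 (right) in the training effect over both states when no library or 1 library is left out (x axes; bars colored by group). Without T3 the counts are 86 and 2364, above every other bar.

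The comparison rests on 8 mice against 8, and within a tumor state on 4 against 4. A difference that missed the threshold is not shown to be absent.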

How the data were processed

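Gastrocnemius RNA from 16 mice was sequenced, 4 libraries in each of the groups C, E, T and TE. Per the labels and the methods of the study, the authors trimmed reads with fastp 0.20.1, aligned them with HISAT2 2.1.0 to GRCm39 and counted them per gene with HTSeq 0.11.2; the annotation release and strand setting are not given in the sources used here. The deposited table holds these raw read counts for 35415 genes, from 35628211 to 37635741 per library, beside deposited FPKM values, which were only checked against counts, gene length and library total (16037 genes, largest relative deviation 5.21e-16) and enter as a description. Columns of other samples numbered 0.

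Genes were filtered with edgeR's filterByExpr over the 4 groups, scaled by TMM and tested with edgeR 4.0.16 (quasi-likelihood F test, two-sided, Benjamini-Hochberg adjustment over all 14749 tested genes, threshold 0.05). The training effect had tumor status as covariate; E over C, TE over T and the interaction came from 1 coefficient per group. CPM are TMM-scaled, fold changes are log2 with their SE, and 3 counts equal at most 0.0842 CPM before TMM scaling. Alternatives used DESeq2 1.42.0, limma 3.58.1 (R 4.3.3), other scalings and filters, a replicate block and each library left out. The fits were tested on simulated data. The members and the 44 gene lists (906 of 912 genes matched) were chosen with earlier results of these data known. Named genes were, as no gene passed, the 8 with the smallest p in each direction, the members of each list with the smallest p or highest level (up to 4), fixed endurance genes, genes separating the groups in both states and those passing in E over C; a few list members beyond these were named after their values were seen. Some list members are not reported here by name.

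Replicate numbers did not pair mice: over 24 pairs of same-numbered libraries the correlation of deviations from group means ran from -0.24 to 0.21, and 5 of 16 libraries correlated best with their own number. Count differences between replicates exceeded sampling noise (chi-square per degree of freedom 12.7 to 61.3), so no library was a copy. Gene positions are from GENCODE on GRCm39, promoters from RefSeq on GRCm38.p6. Figures used matplotlib 3.10.9.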

Additional observations from a re-analysis of the deposited data

Results flagged for a closer look

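Within groups of 4 mice, 524 combinations of a group with a gene or a library-level value were examined. Of these, 38 (7.25%) held a library that stood apart from the other 3 by Dixon's criterion (0.829), where chance gives about 1 in 20. All 38 were genes. All values are CPM, and no cause was tested.

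E2 stood apart for several genes, among them lipid genes and the tendon gene Kera. It was high for Acly (69.5, others up to 38.6), Elovl6 (15.8, others up to 3.92), Ucp1 (4.12, others up to 0.0788), Kera (9.06, others up to 5.32) and Cdkl2 (10.4, others up to 8.38), and low for Idh2 (209.6, others from 285) and Tipin (8.98, others from 9.66). In E1, Hspa1b (15.6) and Mstn (131) were high, in E3 Car3 (1253) and Myl6b (7.04), and in E4 S100a8 (1.27).

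C2 stood apart for Luzp1 (29.3), Cry1 (20.5), Thrsp (27.2) and Ucp1 (0.107), all high, and for Cpt1b (0.455) and Rnps1 (15.4), both low. Prkcd was low in C1 (10.1).

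T3 was high for Fos (62.1, others up to 14.6), Ankrd2 (420.1, others up to 164) and Gsn (970.1, others up to 647) and low for Sdhc (312, others from 345). T4 was high for Myh3 (71.5, others up to 7.61), S100a8 (11.02, others up to 3.18) and Ucp1 (0.111, others 0). Myh4 was high in T1 (37108), and Chad (1.55) and Rsad2 (3.704) in T2.

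Among TE mice, TE4 was low for Vegfa (131, others from 177) and Hk2 (276, others from 352). TE1 was low for Per2 (17.3, others from 22.3) and Tango2 (35.7) and high for Npas2 (1.33) and Ltf (0.190). TE2 was low for Nid1 (116) and high for Ncoa3 (40.8), and TE3 was high for Slc7a8 (16.4).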

How the results depend on the processing

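Counts of genes passing depended on the tool and on single mice; the cause was not tested. Over both states the 0 genes became 70 with DESeq2, 34 with limma-voom, 1 without a filter on low counts, 1 with 1 coefficient per group, 1478 at an unadjusted p and 0 to 86 with a library left out (86 without T3). With a fold change over 2 as well, the 0 became 4, 7, 1, 1, 70 and 0 to 6. The 1478 ranged from 1143 (without C4) to 2364 (without T3). E over C gave 13, 251 with DESeq2, 2092 unadjusted and 0 to 127; TE over T 0, 7, 867 and 0 to 2; the interaction 0, 20, 1358 and 0 to 1. The replicate block, which has no basis in shared animals, gave 25 for E over C and 0 over both states, and changed no other count of calls.

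Differences near 0 changed sign. Pdk4 was 0.072 with limma-voom, 0.040 with the replicate block and -0.34 to 0.10 with a library left out. Ucp3 was -0.0096 with limma-voom, -0.0039 without the tumor covariate, -0.039 without TE4, C3 and E1, and -0.13 to 0.15. Hspa1a was 0.11 with limma-voom and -0.30 to 0.16, and Hspa1b -0.14 without TE4, C3 and E1 and -0.092 to 0.43. Left-out libraries also turned Myh1 (-0.024 to 0.13), Fos (-0.86 to 0.038), Mstn (-0.0019 to 0.13), S100a8 (-0.53 to 0.36) and Nr1d1 (-0.21 to 0.019). Limma-voom gave 2 rather than 7 slow fibre genes lower and 14 rather than 6 collagen genes higher. Whether depth or the number of mice limits the calls was not tested.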

Other observations

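Lymph node and lymphocyte genes were higher in 17 of 23 tested members at an unadjusted p under 0.05 in TE over T (median log2 difference 3.73) and in 0 in E over C (median -0.65), and the list summed to 247.5 CPM in TE4 and to 15.3, 15.8 and 11.7 in TE1 to TE3, against 12.0 to 20.1 in T, so that TE4 alone was above the T mice. Over both states 0 members were higher, and 9 were without C3.

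Amino acid transport and use had 4 of 27 genes higher (14.8%, against 5.34% of all tested genes) and 2 lower (7.41%, against 4.68%). The higher ones were the transporters Slc38a4 (0.37 ± 0.13), Slc38a2 (0.40 ± 0.15) and Slc7a8 (0.34 ± 0.14) and asparagine synthetase, Asns (0.32 ± 0.14). Autophagy and lysosome genes had 5 of 23 lower (21.7%, against 4.68% of all tested genes) and 0 higher. Proteasome genes had 2 of 31 lower (6.45%), near the share of all genes. Of the 31, 29 had negative values, against 7154 of 14749 tested genes, with a median of -0.06. None of these genes passed the adjusted threshold.

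Mustn1, a gene of muscle growth and repair, differed by 0.78 ± 0.32, and by 0.34 without TE1, which had 335 CPM. Myh3, the embryonic myosin, differed by -1.85 ± 0.77, and by -0.59 without T4. The neutrophil gene Ltf differed by -2.53 ± 0.73 at levels of up to 1.41 CPM in T and 0.190 in TE, and by -3.01 to -1.92 with any 1 library left out.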
